A study of Mus musculus with 16 samples.

Results

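Gene-dense windows are 100 kb stretches of the mouse autosomes, starting at multiples of 100000 bases, that overlap 6 or more protein-coding gene bodies of the RefSeq annotation (GRCm38.p6, the coordinates of mm10). Windows in which at least 50% of these genes were olfactory (Olfr) or vomeronasal (Vmn) receptors were left out, which removed 43 windows. The rule kept 509 of the 23948 autosomal windows that held a listed position in any knock-in library, or 2.13% of them and 50.9 Mb. No measured value entered the choice.

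DNMT1 is the maintenance DNA methyltransferase, which copies CpG methylation to the new strand after replication. In the N1580A substitution the enzyme accepts a bulky cofactor analogue and transfers an azide-bearing group in place of a methyl group, so that sites where DNMT1 has acted can be tagged and enriched. CpG-rich promoters are mostly unmethylated in mouse embryonic stem cells, gene bodies are mostly methylated, and cells held in the naive state with 2i lose much of their DNA methylation. Gene-dense stretches of mammalian chromosomes are also rich in GC and in CpG, and replicate early.

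All 16 libraries came from E14TG2a mouse embryonic stem cells that received 1 mM Ado-6-azide by electroporation, with DNA taken 3 h later and 900 ng of sonicated DNA going into each library. Of these, 11 came from cells with the heterozygous Dnmt1 N1580A knock-in, which keep 1 wild-type allele. The Het group held 3 libraries, and days 0, 2, 4 and 8 of the move out of the naive state held 2 each. Day 0 cells were naive, in medium with serum, LIF and the 2i inhibitors CHIR99021 and PD0325901, and the later days counted from removal of 2i. The WT group (3 libraries) and the group labelled wild-type control (2 libraries) carried wild-type Dnmt1. The labels do not give the culture state of the Het triplicate or the difference between the 2 wild-type groups. Whether replicates came from separate cultures is not stated, and the p-values therefore describe library-to-library spread alone, which may be technical. In bulk DNA, more labelled cells and more label per cell cannot be told apart.

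Each library is a list of CpG positions with a read count of at least 1. Every listed position inside a promoter sequence fell on the C of a plus-strand CpG. Knock-in libraries held 4202118 to 25175264 reads at 390158 to 3423423 positions, and wild-type libraries held 1640 to 22890 reads at 960 to 9150 positions. Day 0 libraries were the shallowest of the knock-in libraries, and day 8 libraries held 3065096 and 2602884 positions, against 390158 and 407127 on day 0.

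The 509 windows formed 331 separate runs, of which 227 were single windows, and 1 of the 2 longest runs, of 6 windows, lay at chr2:25200001-25800000. They held a median of 7 genes and at most 25. Chromosome 7 had 80, chromosome 11 had 64 and chromosome 17 had 44, while chromosome 12 had 3. They overlapped 3572 of the 20554 autosomal protein-coding genes, or 17.4%. Among lists of genes with shared roles, 62 of 67 histone genes lay in them, as did 27 of 91 genes for cytosolic ribosomal proteins, 23 of 78 for mitochondrial ribosomal proteins and 14 of 39 for proteasome subunits. Of 408 zinc finger genes (Zfp, Zscan and Rex2 symbols), 48 lay in them. In 53 windows 50% or more of the genes belonged to 1 tandem family, such as histones or protocadherins, and 456 windows were mixed.

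4 promoters show the range of the label at the gene starts in these windows. They are the 250 bases before the start from the RefSeq promoter table used here (GRCm38.p6), written 5′ to 3′ along the gene's own strand, with a CpG in capitals where it is the reason for printing the sequence. In the first pair, the promoters with the most CpGs listed in 6 or more of the 11 knock-in libraries, capitals mark those CpGs. Ties in that number were ranked by the number of CpGs listed in any knock-in library. In the second pair, the promoters with the most CpGs of which none was listed in any knock-in library, capitals mark every CpG.
Fer1l4, chr2:156052994-156053243, minus strand: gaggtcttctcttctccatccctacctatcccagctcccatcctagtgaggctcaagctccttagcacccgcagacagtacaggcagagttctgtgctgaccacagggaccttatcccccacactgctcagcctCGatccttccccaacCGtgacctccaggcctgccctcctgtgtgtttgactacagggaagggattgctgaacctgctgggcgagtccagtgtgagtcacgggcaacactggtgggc
Ppp1r27, chr11:120551133-120551382, minus strand: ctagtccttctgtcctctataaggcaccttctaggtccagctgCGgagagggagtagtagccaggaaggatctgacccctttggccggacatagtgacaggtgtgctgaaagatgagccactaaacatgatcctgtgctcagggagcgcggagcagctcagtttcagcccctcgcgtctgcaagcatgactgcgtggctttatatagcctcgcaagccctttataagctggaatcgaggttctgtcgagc
Itpk1, chr12:102704870-102705119, minus strand: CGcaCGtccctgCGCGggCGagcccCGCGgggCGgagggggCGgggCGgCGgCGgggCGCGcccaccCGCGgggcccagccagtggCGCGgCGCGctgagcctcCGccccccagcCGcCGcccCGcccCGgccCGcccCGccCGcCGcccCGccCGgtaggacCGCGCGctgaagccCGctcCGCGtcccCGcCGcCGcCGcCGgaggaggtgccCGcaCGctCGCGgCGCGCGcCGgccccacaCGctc
Phf10, chr17:14961261-14961510, minus strand: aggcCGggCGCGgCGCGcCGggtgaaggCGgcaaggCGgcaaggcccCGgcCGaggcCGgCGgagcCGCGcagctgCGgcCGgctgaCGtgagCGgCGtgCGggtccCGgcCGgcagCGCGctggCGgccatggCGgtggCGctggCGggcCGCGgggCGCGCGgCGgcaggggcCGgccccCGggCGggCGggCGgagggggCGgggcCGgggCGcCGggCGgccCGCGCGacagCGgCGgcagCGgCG

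The Fer1l4 promoter, of a ferlin family gene, holds 5 CpGs, of which 2 were each listed in 7 knock-in libraries and the other 3 in none. The CpG at position 156053093 carried 16, 6 and 0 reads in the Het libraries. Day 0 gave 0 and 0 reads, day 2 gave 11 and 2, day 4 gave 1 and 1, and day 8 gave 1 and 0. Its neighbour at 156053108 carried 8, 7 and 0 reads in the Het libraries and none on day 0. The Ppp1r27 promoter, of a regulatory subunit of protein phosphatase 1, holds 10 CpGs. Of these, 9 were listed in a knock-in library, and 1 of them, at 120551338, was listed in 6. Itpk1, which encodes an inositol phosphate kinase, and Phf10, which encodes a subunit of the BAF chromatin remodelling complex, each have 51 CpGs in these bases, and none was listed in any of the 11. None of the CpGs of the 4 promoters was listed in a wild-type library.

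Listed positions were denser in gene-dense windows than in the other 23439 autosomal windows in every library. The ratio of positions per window, gene-dense over other, was 1.75, 1.78 and 1.85 in the Het libraries. Naive day 0 cells gave 1.42 and 1.32, day 2 gave 1.58 and 1.59, day 4 gave 1.81 and 1.84, and day 8 gave 1.81 and 1.71. Day 0 was the lowest of the knock-in groups and did not overlap any other. Over the 11 knock-in libraries the geometric mean ratio was 1.67, above 1 in 11 of 11 libraries (two-sided exact sign-flip permutation test, p = 0.000977, the smallest it can give, and 0.00146 adjusted over 3 density ratios).

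In windows, that ratio came from 116, 245 and 197 positions per gene-dense window in the Het libraries, against 66.3, 138 and 106 per other window. On day 8 there were 224 and 180 positions per gene-dense window, against 124 and 105 per other window, and on day 0 there were 22.5 and 21.9, against 15.9 and 16.6. All 509 windows held a listed position in 10 of the 11 knock-in libraries, and Day 0 replicate 1 lacked one in 1 window. The windows held 3.79% and 3.58% of autosomal positions on day 8 and 2.99% and 2.78% on day 0. These densities are per base. The number of CpGs per window was not known here, so the part of CpG content in the ratio was not tested.

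The read counts gave the same order. The read ratio was 1.79, 1.85 and 1.90 in the Het libraries. Day 0 gave 1.38 and 1.34, day 2 gave 1.61 and 1.61, day 4 gave 1.84 and 1.90, and day 8 gave 1.87 and 1.73. Over the 11 libraries this was a geometric mean of 1.70 (exact sign-flip permutation test, p = 0.000977). Reads per listed position differed little between the 2 kinds of window. On day 8 they were 4.24 and 4.11 in gene-dense windows, against 4.11 and 4.05 in other windows, and on day 0 they were 10.5 and 12.2, against 10.8 and 12.0. The ratio of reads per position had a geometric mean of 1.02 and was above 1 in 10 of 11 libraries (exact sign-flip permutation test, p = 0.00684), but with at most 10 reads counted per position it was 1.01 (p = 0.159).

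**Figure D1:**
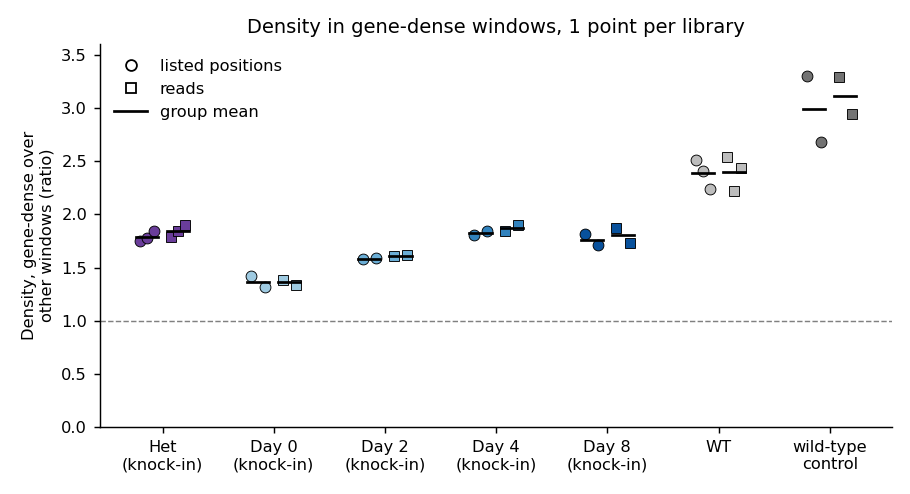
Ratio of density per 100 kb window, gene-dense over other autosomal windows, for each library (vertical axis, a ratio starting at 0), by group (horizontal axis). Circles are listed positions, squares are reads, and bars are group means. The day 0 libraries sit at 1.32 to 1.42 and the wild-type libraries at 2.22 to 3.30.

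Wild-type libraries, the background of the method, had higher ratios at far lower depth. The position ratio was 2.51, 2.41 and 2.24 in WT and 3.30 and 2.68 in wild-type control, from 47 to 603 positions in gene-dense windows. The 11 knock-in libraries averaged 1.68 ± 0.179 and the 5 wild-type libraries 2.63 ± 0.406 (mean ± SD), and the groups did not overlap. The knock-in ratio was 0.640 times the wild-type ratio for positions and 0.639 times for reads (two-sided exact permutation test, 11 against 5, p = 0.000229 for each, the smallest it can give). Split by group label, it was 0.750 times for Het against WT (exact permutation p = 0.100, the smallest for 3 against 3). For the day libraries against wild-type control it was 0.546 times (exact permutation p = 0.0222, the smallest for 8 against 2). The labels do not say which wild-type group was matched to which knock-in group.

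Density was higher in windows with more genes up to 8 or 9, and the classes stood further apart after day 0, a description that was not tested. Relative to the mean of all autosomal windows, windows without a gene held 0.705 on day 0, with day 2 at 0.688, day 4 at 0.661 and day 8 at 0.673 (means of 2 libraries). Windows with 2 genes held 1.25, 1.24, 1.26 and 1.25 on the same days, with little difference between them. Windows with 4 genes, outside the rule, held 1.28, 1.37, 1.48 and 1.44. Windows with 6 or 7 genes held 1.34, 1.53, 1.75 and 1.69, and windows with 8 or 9 genes held 1.45, 1.67, 1.93 and 1.86. The 56 windows with 10 or more genes held 1.31, 1.53, 1.78 and 1.72. In the Het libraries the 3 classes held 1.71, 1.89 and 1.77. The receptor windows that the rule left out held 0.387 to 0.466 in the knock-in groups. At the threshold of the rule, the 224 windows with 6 genes held 1.69 on day 8 and 1.34 on day 0, and the 468 windows with 5 genes held 1.46 on day 8 and 1.28 on day 0.

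**Figure D2:**
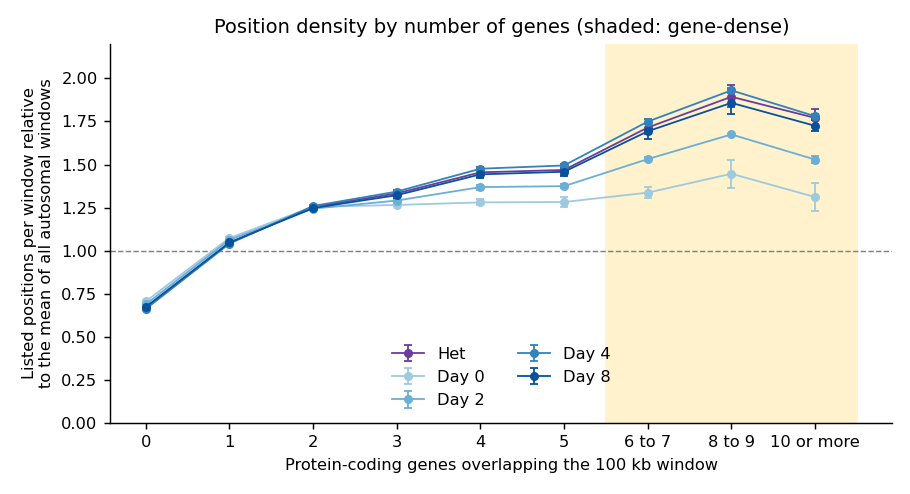
Listed positions per window relative to the mean of all autosomal windows (vertical axis) against the number of protein-coding genes in the window (horizontal axis), with shading over the gene-dense classes. Points are group means and bars run from the lowest to the highest library. The groups lie together up to 2 genes and begin to spread below the threshold. Day 0 and day 4 lie at 1.27 and 1.34 for 3 genes, 1.28 and 1.48 for 4, and 1.28 and 1.49 for 5. At 6 or more genes day 0 lies at 1.31 to 1.45 and day 4 at 1.75 to 1.93.

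The position ratio rose with the day over the 8 day libraries (Pearson r = 0.78, exact permutation p = 0.0262, 0.0393 adjusted over 3 ratios; Spearman rho = 0.83, p = 0.0198). The read ratio gave r = 0.78 (exact permutation p = 0.0254, adjusted 0.0393) and rho = 0.83 (p = 0.0198). With the 2 libraries most distant from the median day (both day 8) left out, positions gave r = 0.99 (exact permutation p = 0.0222) and reads gave 0.99. Without both day 0 libraries r was 0.54 (exact permutation p = 0.300), so the relation rests on day 0. Leaving out 1 library kept the adjusted p of both ratios under 0.05 without Day 4 replicate 1, Day 4 replicate 2 or Day 8 replicate 2. Without Day 0 replicate 1 the position ratio gave r = 0.73 and without Day 0 replicate 2 it gave 0.72 (exact permutation, adjusted p = 0.112 and 0.121). Without Day 2 replicate 1, Day 2 replicate 2 or Day 8 replicate 1 it gave 0.78, 0.78 and 0.75 (adjusted p = 0.0738, 0.0762 and 0.0786). The day 8 ratio was 1.29 times the day 0 ratio, and day 4 was 1.33 times day 0, with 2 libraries each, where no exact test can go below p = 0.333. The ratio of reads per position gave r = 0.54 (exact permutation p = 0.189). The number of listed positions per library also moved with the day. With each library thinned to 4202118 reads the position ratio gave r = 0.79 (exact permutation p = 0.0214). Thinning evened out reads but not positions. The day 8 libraries still held 2104216 and 1932225 autosomal positions, against 383292 and 393836 on day 0. It therefore cannot separate the day from the number of positions.

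The same windows were then tested one by one, in a fit of all autosomal windows over the 8 day libraries with edgeR's quasi-likelihood test and Benjamini-Hochberg adjustment. On day 8, 82 of the 506 gene-dense windows tested held a higher share of listed positions than on day 0 and 3 held a lower share at an adjusted p under 0.05. Of all 23665 autosomal windows tested, 10.7% passed, 3.96% higher and 6.75% lower. On day 4, 107 were higher and 4 lower (9.74% of all windows passed, 3.72% higher and 6.02% lower). On day 2, 7 were higher and 1 lower (2.84% of all windows passed, 0.693% higher and 2.14% lower). With library totals in place of TMM scaling, the split over all windows on day 8 was 1187 higher and 1228 lower, against 936 and 1598 with TMM, and that over gene-dense windows was 123 higher and 2 lower. The median log2 change of gene-dense windows over day 0 was 0.16 on day 2, 0.40 on day 4 and 0.32 on day 8, against 0.00, 0.02 and 0.01 over all windows tested. The 3 contrasts share the day 0 libraries. Without either day 0 library, which leaves 1 library on day 0, fewer gene-dense windows passed on day 8. Their share lay nearer to that of all windows than the 16.8% with all 8 libraries. These shares count both directions. With all 8 libraries, gene-dense calls were mostly higher and calls over all windows mostly lower.

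**Figure D3:**
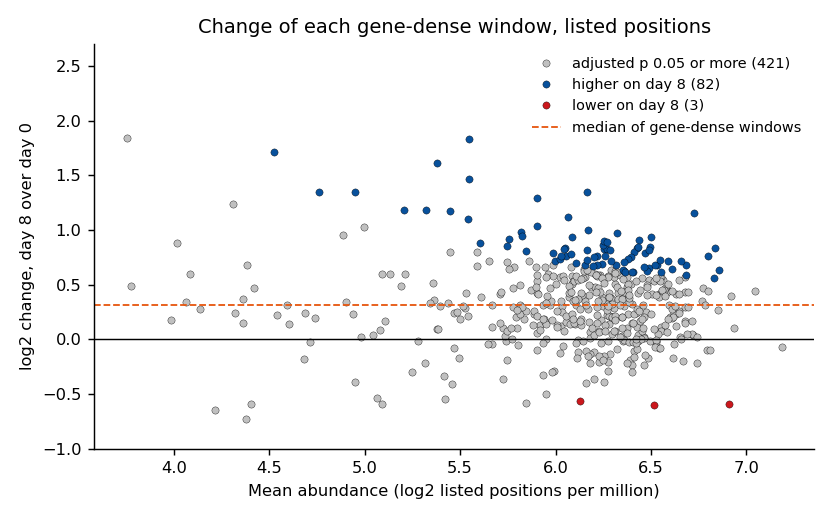
Log2 change of listed positions, day 8 over day 0 (vertical axis), against mean abundance as log2 ppm (horizontal axis), for the 506 gene-dense windows tested. Blue points are the 82 windows that were higher on day 8 and red points the 3 that were lower at an adjusted p under 0.05, grey points are the rest, and the dashed line is the median, 0.32.

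With DESeq2, 17 gene-dense windows were higher and 2 lower in positions on day 8. That was 3.75% of those tested in either direction, below the 4.07% of all windows in either direction. The directions differed, as 117 of all windows were higher and 846 lower. In the fit of reads, 68 of 509 gene-dense windows were higher on day 8 and none was lower (DESeq2 gave 4 lower, and 7.97% of 23800 windows passed in edgeR, 3.76% higher and 4.21% lower). At an unadjusted p under 0.05 in edgeR there were 185 of 509 in either direction, against 6335 of the 23800 windows overall. On day 4, 86 were higher and 2 lower (7.94% of all windows passed, 3.92% higher and 4.03% lower), and on day 2, 21 were higher (3.88% of all windows passed, 2.05% higher and 1.83% lower). Of the windows higher on day 8, 40 were shared by both fits, which is 48.8% of those in positions and 58.8% of those in reads. DESeq2 on all 8 libraries gave 157 on day 8, or 30.8%, against 22.2% of all windows. In edgeR, no gene-dense window passed on day 8 with only the 4 libraries compared or without either day 8 library. With those 4 libraries, none of all 23745 windows passed either. At an unadjusted p under 0.05 there were 120 of 509 gene-dense windows, against 4073 of 23745 over all windows. Without Day 4 replicate 1 or replicate 2, 5 passed in each case, or 0.982%, against 0.722% and 0.613% of all windows. Without Day 2 replicate 1 or replicate 2, 25 passed in each case, or 4.91%, against 2.93% and 2.86% of all windows. Without Day 0 replicate 1, 187 passed, or 36.7%, and without Day 0 replicate 2, 207 passed, or 40.7%, against 32.4% of all windows in each case. The median log2 change in reads on day 8 was 0.33, and 0.29 and 0.39 without either day 8 library.

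Among the windows higher on day 8 that lay at or above the median abundance of all windows, the change was largest in the HoxC cluster, at chr15:102900001-103000000, with Hoxc13, Hoxc12, Hoxc11, Hoxc10, Hoxc9, Hoxc8 and Hoxc6, homeobox genes that pattern the body axis and are held silent by Polycomb in embryonic stem cells. With shares given as positions per 1000000 listed positions of the library (ppm, after TMM scaling), it held 13.4 and 15.5 ppm on day 0, with day 2 at 19.1 and 41.7, day 4 at 48.3 and 54.6 and day 8 at 51.7 and 51.7. Both day 8 libraries lay above both day 0 libraries, which the rule for naming windows required. Of the 506 gene-dense windows tested, 284 were higher and 38 lower on day 8 without overlap, so the separation alone does not set this window apart. The same count was not made over all autosomal windows. The raw counts of the HoxC window on day 0 were 5 and 6 positions. The log2 change on day 8 was 1.83 ± 0.35 (SE; edgeR, adjusted p = 4.56e-05) and in reads it was 2.67 ± 0.36 (adjusted p = 0.00802). The call in positions held in all 16 alternatives run on it.

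The other 3 Hox windows lay in the same direction. So did 377 of 453 mixed windows and 41 of 53 windows of tandem families tested, so the direction is not particular to Hox. The HoxD window, at chr2:74600001-74700000 with Evx2 and Hoxd9 to Hoxd13 genes, changed by 1.10 on the log2 scale on day 8 (edgeR, adjusted p = 0.0119). The HoxB window, at chr11:96300001-96400000, gave a log2 value of 0.57 (adjusted p = 0.113) and the HoxA window, at chr6:52200001-52300000, gave 0.50 (adjusted p = 0.156). Relative to the mean of all windows, the 4 together held 0.753 on day 0, with day 2 at 1.06, day 4 at 1.44 and day 8 at 1.41, and 1.38 in the Het libraries, so they were below the autosomal mean on day 0 and above it from day 2.

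Among mixed windows, the one at chr7:13000001-13100000 held Trim28, the corepressor that KRAB zinc finger proteins recruit, with Zbtb45, Mzf1, Chmp2a and Ube2m. It had 18.8 and 10.3 ppm of positions on day 0, with day 2 at 32.6 and 34.7, day 4 at 47.3 and 40.9 and day 8 at 46.8 and 41.4. The log2 change on day 8 was 1.61 ± 0.36 (edgeR, adjusted p = 0.000834), and without Day 0 replicate 2 it was 1.23 (adjusted p = 0.137). The window of Wdr27 and Phf10, at chr17:14900001-15000000, had 10.7 and 23.2 ppm of positions on day 0, with day 2 at 40.5 and 47.1, day 4 at 46.8 and 50.7 and day 8 at 47.8 and 47.1. Its log2 change was 1.47 ± 0.34 (adjusted p = 0.00124), and 1.03 without Day 0 replicate 1 (adjusted p = 0.163). It is the window whose Phf10 promoter, printed above, had none of its 51 CpGs listed.

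The window at chr7:45500001-45600000, with Ppp1r15a, a stress-induced phosphatase subunit, Nucb1, Tulp2, Plekha4, Hsd17b14 and Bcat2, had 29.5 and 33.5 ppm of positions on day 0, with day 2 at 50.8 and 60.2, day 4 at 77.3 and 70.4 and day 8 at 86.0 and 73.5. Its log2 change of 1.34 ± 0.26 (edgeR, adjusted p = 3.86e-05) held in all 16 alternatives. The window at chr17:23600001-23700000 holds Zscan10, a zinc finger gene of pluripotent cells, beside Thoc6, Mmp25 and the claudins Cldn6 and Cldn9. It had 21.5 and 28.3 ppm of positions on day 0, with day 2 at 49.2 and 53.3, day 4 at 70.5 and 61.7 and day 8 at 63.0 and 59.0. In these 2 windows the day 2 and day 4 libraries also lay above both day 0 libraries. The windows were named by those same day 0 values set against day 8, so this adds no separate support. The Zscan10 window's log2 change was 1.29 ± 0.29 (adjusted p = 0.000805), and 1.11 without Day 0 replicate 1 (adjusted p = 0.0770). The window at chr17:33800001-33900000, with Rps28 and Ndufa7, a ribosomal protein and a complex I subunit, had 16.1 and 20.6 ppm on day 0, with day 2 at 38.9 and 25.5, day 4 at 43.9 and 40.1 and day 8 at 43.2 and 40.6. It changed by 1.19 ± 0.34 (adjusted p = 0.0130), a call lost without either day 0 library and with DESeq2.

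Other windows were named from the fit of reads. The window at chr15:79600001-79700000, with Dmc1, the meiotic recombinase, Tomm22 and Gtpbp1, had 20.7 and 26.6 ppm of reads on day 0, with day 2 at 63.4 and 64.8, day 4 at 76.7 and 79.9 and day 8 at 71.6 and 75.8. It changed by 1.63 ± 0.20 in reads (adjusted p = 0.00765). The window at chr10:75900001-76000000, with Smarcb1, a core BAF subunit, had 22.8 and 41.0 ppm of reads on day 0 and 65.8 and 71.6 on day 2, with day 4 at 76.4 and 91.0 and day 8 at 86.7 and 70.5. It changed by 1.30 ± 0.26 in reads (adjusted p = 0.0207). These calls of the fit of reads, and that of HoxC, were each lost without either day 8 library and with only the 4 libraries compared. The Smarcb1 call was lost in 7 of 16 alternatives, also without either day 2 library (edgeR, adjusted p = 0.0536 and 0.0533) and without either day 4 library (0.0626 and 0.0630), and its log2 change was as low as 0.95.

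The 3 windows lower on day 8 in positions lay above the autosomal mean in all 11 knock-in libraries. The Ugt1a window, at chr1:88200001-88300000, overlaps bodies of Ugt1a genes, for glucuronosyltransferases that conjugate bilirubin and drugs, with Dnajb3, Mroh2a and Hjurp. It had 187.9 and 144.3 ppm of positions on day 0, with day 2 at 146.1 and 138.1, day 4 at 115.9 and 105.4 and day 8 at 110.4 and 108.8. Its log2 change on day 8 was -0.59 ± 0.16 (edgeR, adjusted p = 0.00605), and -0.40 without Day 0 replicate 1 (adjusted p = 0.332). The window at chr4:43500001-43600000, with Car9, Tln1, Tpm2 and Creb3, had 147.6 and 128.8 ppm on day 0, with day 2 at 88.2 and 78.7, day 4 at 83.5 and 87.7 and day 8 at 92.0 and 90.0. It changed by -0.60 ± 0.17 on day 8 (adjusted p = 0.00797). The one at chr7:140000001-140100000, with Tubgcp2, Msx3 and Caly, had 102.0 and 97.9 ppm on day 0, with day 2 at 61.9 and 70.2, day 4 at 72.4 and 62.1 and day 8 at 70.9 and 63.6, and changed by -0.57 ± 0.19 (adjusted p = 0.0335). In both, the day 2 and day 4 libraries also lay below both day 0 libraries. The windows were named by those same day 0 values set against day 8, so this adds no separate support. Both calls were lost without either day 0 library, with adjusted p of 0.203 and 0.0545 for the first and 0.235 and 0.203 for the second. The Tubgcp2 call was lost in 6 of 16 alternatives, also with library totals, with DESeq2, without Day 8 replicate 2 and over positions with 2 or more reads. None of the 3 passed in reads, where the log2 values were -0.27, -0.27 and -0.34.

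Windows of tandem families differed from mixed windows in level. Mixed windows held 1.41 on day 0, with day 2 at 1.63, day 4 at 1.87 and day 8 at 1.81, relative to the mean of all windows. The 7 histone windows, whose genes are intron-poor and active in S phase, held 0.478, 0.667, 0.723 and 0.715, below the autosomal mean on every day. The 9 protocadherin windows, whose neuronal adhesion genes are chosen stochastically by promoter, held 0.654, 0.752, 0.949 and 0.994, and 1.10 in the Het libraries. The 2 keratin windows held 1.99, 2.05, 1.84 and 1.92, and the 2 glucuronosyltransferase windows 2.25, 2.01, 1.62 and 1.63. On day 8, 75 of 453 mixed windows tested were higher and 2 lower, and 7 of 53 family windows were higher and 1 lower. Of all 23665 autosomal windows tested, 3.96% were higher and 6.75% lower. The family windows higher on day 8 were 2 of 4 Hox, 2 of 7 histone, 1 of 9 protocadherin, 1 of 2 interferon and the 1 window of Clec genes. The fold between family and mixed windows was not tested.

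**Figure D4:**
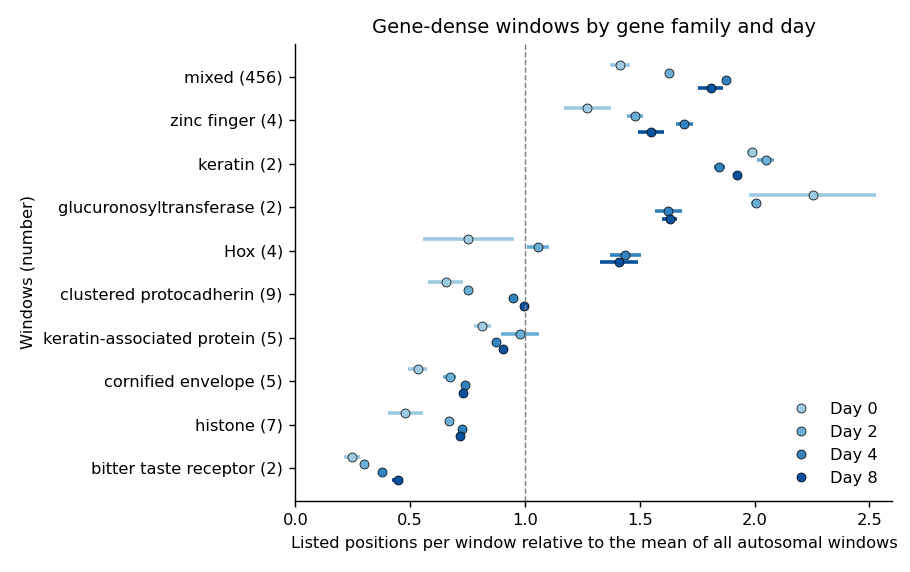
Listed positions per window relative to the mean of all autosomal windows (horizontal axis, starting at 0) for mixed windows and 9 families of gene-dense windows (rows, with the number of windows), by day. Points are means of 2 libraries and lines join the 2 libraries. Hox windows held 1.41 on day 8, against 0.753 on day 0, and glucuronosyltransferase windows held 1.63 on day 8, against 2.25 on day 0.

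Over all 509 windows the mean relative density of the 11 knock-in libraries had a median of 1.70, with 80% of windows between 0.925 and 2.24. Of the windows, 62 lay below the autosomal mean (12.2%), against 56.3% of other windows, and 24.8% lay above 2 times the mean, against 6.28% of other windows. The highest was at chr8:122400001-122500000, with Cyba, a subunit of the phagocyte oxidase, Piezo1, a mechanically gated channel, Mvd, Snai3 and 4 other genes. Its relative density was 2.81 at the lowest, 3.58 at the median and 4.12 at the highest of the 11 libraries. The Ugt1a window followed with a mean of 3.07 ± 0.549 (SD, n = 11). The window of Recql5, Llgl2 and Caskin2 at chr11:115800001-115900000 was also among the 4 highest, with 2.91 ± 0.288.

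The 3 lowest windows held only genes with Gm symbols. They lay at chr4:73600001-73700000, chr10:104100001-104200000 and chr10:100300001-100400000, with mean relative densities of 0.100, 0.112 and 0.112. Next came the bitter taste receptor window at chr6:132700001-132800000, with Tas2r121 and 5 other Tas2r genes, at 0.253 ± 0.0963 (SD, n = 11). Reads from near-identical copies may not map to 1 place, and the sources used here do not give how such reads were treated, so the part of mapping in these low values was not tested.

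The windows with the most genes were not the densest. The protocadherin gamma windows at chr18:37800001-37900000 and chr18:37700001-37800000, with 25 and 21 genes, held 1.31 ± 0.275 and 1.36 ± 0.343 (SD, n = 11). The protocadherin alpha window at chr18:37100001-37200000, with 17 genes, held 0.677 ± 0.118. A window of Krtap20-2 and 16 Gm genes at chr16:89200001-89300000 held 0.378 ± 0.0698, while the window of Grin1, an NMDA receptor subunit, Anapc2 and 14 other genes at chr2:25200001-25300000 held 1.54 ± 0.176. None of the 5 passed the test of positions on day 8, with adjusted p between 0.0616 and 0.743.

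Reads per position varied less between windows than density did. The mean over the 11 libraries was 7.69 at the median window, with 80% of windows between 7.12 and 8.13. The highest were the window of Dynll1, Srsf9 and Msi1 at chr5:115300001-115400000 with 9.19, a histone window at chr13:23700001-23800000 with 8.81, the window of Dvl2, Dlg4 and Acadvl at chr11:70000001-70100000 with 8.67, and that of Loxl3, Pcgf1 and Tlx2 at chr6:83000001-83100000 with 8.67.

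Agreement between libraries was lower on day 0. Across the 509 windows, Spearman's rho of positions was 0.672 between the day 0 libraries, 0.861 on day 2, 0.924 on day 4, 0.936 on day 8 and 0.902 to 0.944 among the Het libraries. Pairs with 1 day 0 library lay between 0.671 and 0.714, and pairs without day 0 between 0.837 and 0.949. The points share the gene and CpG content of the windows and differ in depth. Over the 11 libraries the windows held 393178 distinct positions, or 772 per window against 477 in other windows. Of these, 44.1% were listed in 1 library, against 49.0% in other windows, and 3099 were listed in 6 or more, or 6.09 per window against 2.16. In gene-dense windows 1 position was listed in all 11 libraries, against 270 in other windows.

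Inside the windows, listed positions were denser in gene bodies than outside them and less dense near gene ends than in the rest of the window. Gene bodies covered 65.9% of their bases and held 74.8% to 76.7% of the listed positions in the knock-in libraries, a density 1.53 to 1.70 times that outside. Bases within 1 kb of either end of a gene made up 20.9% of the windows. Their density relative to the rest of the window was 0.887, 0.873 and 0.882 in the Het libraries. Day 0 gave 0.899 and 0.812, day 2 gave 0.837 and 0.830, day 4 gave 0.833 and 0.854, and day 8 gave 0.866 and 0.854. The geometric mean was 0.857, below 1 in 11 of 11 libraries (exact sign-flip permutation test, p = 0.000977, 0.00293 adjusted over 6 tests within promoters and gene ends). In the wild-type libraries it was 1.81, 3.06 and 1.20 in WT and 1.98 and 1.80 in wild-type control, all above the knock-in libraries.

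Around the 3163 start sites in gene-dense windows the profile dipped at the start. In the 500 bases before it, density relative to the autosomal mean was 0.692 on day 0, with day 2 at 0.705, day 4 at 0.794 and day 8 at 0.777, and 0.828 in the Het libraries. From 3000 to 3500 bases into the gene it was 1.47, 1.78, 2.09 and 1.94 on the 4 days and 2.07 in the Het libraries. From 1000 to 1500 bases it was 0.963, 1.23, 1.63 and 1.62, so the shoulder after the start was below the autosomal mean on day 0 and above it on the later days. In the wild-type libraries the 500 bases before the start held 7.02 in WT and 7.13 in wild-type control.

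**Figure D5:**
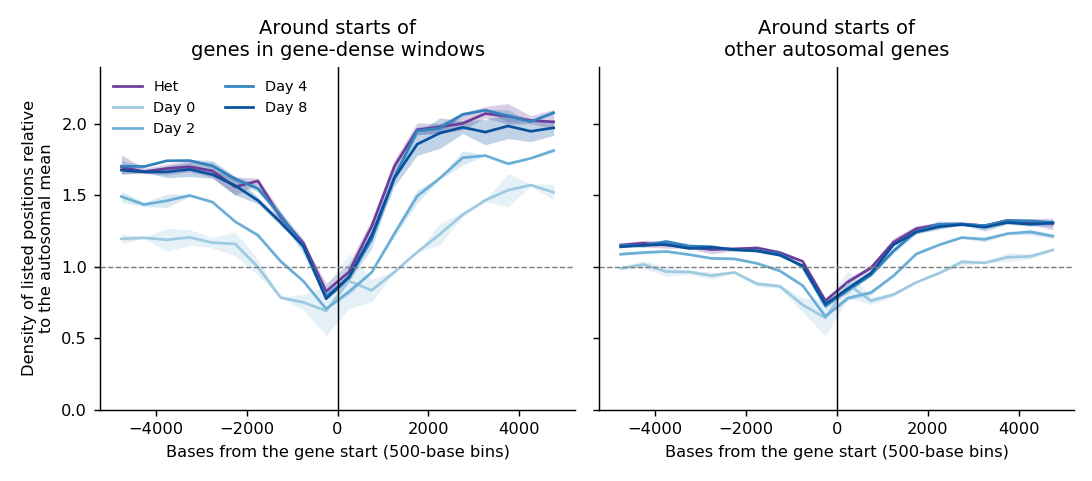
Density of listed positions relative to the autosomal mean (vertical axis, starting at 0) in 500-base bins by distance from the gene start (horizontal axis, bases along the gene), for starts in gene-dense windows (left) and other autosomal windows (right). Lines are group means and shading spans the libraries of a group. The trough before the start is at 0.692 to 0.828 on the left.

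Promoters could be set against the CpGs that exist. The RefSeq promoter table used here held 3176 promoters of 2645 genes starting in gene-dense windows and 16908 promoters of 13830 genes elsewhere, with a mean of 15.9 and 15.7 CpGs per promoter (250 bases before to 50 after the start). Promoters on chromosome 18, with 13 of the gene-dense windows, protocadherin clusters included, were not analysed here. On day 8, 1.97% and 1.60% of the 44032 promoter CpGs in gene-dense windows were listed, against 1.82% and 1.54% of 244726 in other windows. On day 0 it was 0.309% and 0.177%, against 0.264% and 0.187%. The Het libraries listed 493, 920 and 761 of the promoter CpGs in gene-dense windows, against 2374, 5088 and 4014 of those in other windows. Wild-type libraries listed 0.0114% to 0.0931% in gene-dense windows. Their means were 0.0182% in WT and 0.0556% in wild-type control, against 0.0151% and 0.0374% in other windows. The background was thus also higher in gene-dense windows, which was not tested. The ratio, gene-dense over other, had a geometric mean of 1.07 over the knock-in libraries. It was above 1 in 10 of 11 (exact sign-flip permutation test, p = 0.0107, 0.0161 adjusted over 6 tests). The 1.67 over whole windows is per base and covers other bases, so the 2 are not like measures. The 1.07 pools promoter classes whose own ratios lay on both sides of 1. In 1787 of the 3176 promoters, or 56.3%, no CpG was listed in any knock-in library.

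The share of CpGs listed was lower in promoters with more CpGs. On day 8, gene-dense promoters with 0 to 4 CpGs had 16.0% ± 3.76 of them listed (SD, n = 2), those with 5 to 9 had 11.1% ± 1.64, those with 10 to 19 had 1.31% ± 0.0687 and those with 20 or more had 0.188% in both libraries. On day 0 the 4 classes had 1.65% ± 0.428, 1.02% ± 0.0449, 0.203% ± 0.0749 and 0.101% ± 0.0837. The last class was near the wild-type background, which reached 0.0871%. Promoters with 0 to 4 CpGs were listed more often in gene-dense windows than elsewhere (ratio 1.15, 10 of 11 libraries, exact sign-flip permutation test, adjusted p = 0.0117). Those with 10 to 19 CpGs were listed less often (ratio 0.736, 11 of 11 libraries below 1, adjusted p = 0.00293). The ratio was 0.983 for 5 to 9 CpGs (exact sign-flip permutation test, adjusted p = 0.497) and 1.23 for 20 or more (above 1 in 8 of 11 libraries, adjusted p = 0.0176). Background in that last class was also higher in gene-dense windows. WT means were 0.0174% there and 0.0124% elsewhere, and wild-type control means 0.0470% and 0.0328%.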

How the data were processed

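Per the submitters' processing notes, reads were processed with cutadapt 4.4, BWA 0.7.17-r1188 and SAMtools 1.12 on mm10. How strands and duplicates were handled is not given in the sources used here. Each deposited table holds, for 1 library, a raw read count of at least 1 at each listed CpG position, and unlisted positions were taken as 0. Reads carry no molecular identifiers, so distinct positions were analysed beside reads.

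Gene bodies came from RefSeq (GRCm38.p6), without 107 genes placed on scaffolds. Window sums of the 8 day libraries were fitted over all autosomal windows with edgeR 4.0.16 (R 4.3.3): filterByExpr, TMM scaling, glmQLFit and glmQLFTest, with Benjamini-Hochberg adjusted p under 0.05 as the threshold. The SE is the size of the log2 change divided by the root of its F statistic. On simulated data for day 8 against day 0, the fit recovered 91% of 2-fold and 18% of 1.5-fold changes in positions (23665 windows) and 68% and 12% in reads (23800 windows). Ratios were tested by exact sign flips or permutations over libraries. Windows were named by ranks: 5 with the most genes, 4 highest and 4 lowest in share of positions, 4 with the most reads per position, and on day 8 up to 6 each way in positions and 4 in reads, past the threshold, at or above median abundance and with no overlap between days. Other Hox and family windows were named after their values were seen. Families follow symbol prefixes. Of the windows this rule names, 2 are not reported here. Members and lists were chosen with earlier results of these data known.

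Replicate numbers did not pair libraries: deviations of libraries sharing a number correlated between -0.0277 and 0.0140. Alternatives covered scaling, filter, tool, samples, depth, reads per position and the gene threshold.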

Additional observations from a re-analysis of the deposited data

How the results depend on the processing

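The position and read density ratios, the comparison with wild-type Dnmt1, the promoter ratio and the gene-end ratio kept their direction and side of the threshold in every alternative run. Against windows without a gene the position ratio was 2.43. Leaving out 1 library gave 1.65 to 1.71 for the position ratio, 1.68 to 1.74 for the read ratio, 1.02 to 1.02 for reads per position, 0.617 to 0.679 and 0.611 to 0.674 for knock-in against wild type in positions and reads, 1.06 to 1.08 for promoters and 0.853 to 0.861 for gene ends. The ratio of medians gave no comparison with wild type, whose medians were 0. With at most 10 reads per position the ratio of reads per position was 1.01 (exact permutation, adjusted p = 0.159) and its correlation with the day 0.69 (adjusted p = 0.0444). The correlation of the ratio with the day ran from 0.72 to 0.86 for positions, 0.72 to 0.87 for reads and 0.35 to 0.67 for reads per position without 1 library, with 3 of 8 passing for each of the first 2, and without both day 0 libraries, added after seeing the data, it was 0.54 and 0.53.

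Counts of gene-dense windows passing, in either direction, depended on the fit. For positions on days 8, 4 and 2 they were 19, 26 and 2 with DESeq2 (3.75%, 5.14% and 0.395% of gene-dense windows, against 4.07%, 3.73% and 0.807% of all windows), 31, 44 and 3 over windows of 8 or more genes, and 16 to 88, 25 to 114 and 2 to 10 without 1 library; day 2 gave 15 with library totals. For reads they were 157, 181 and 88 with DESeq2 (30.8%, 35.6% and 17.3%, against 22.2%, 22.6% and 17.8% of all windows), 31, 36 and 6 over windows of 8 or more genes, 136, 161 and 35 with at most 10 reads per position, 0 on each day in edgeR with only the 4 libraries compared (120, 152 and 49 at an unadjusted p under 0.05), and 0 to 207, 0 to 223 and 0 to 150 without 1 library; day 2 gave 11 after thinning. With only the 4 libraries compared, 4073, 4039 and 2697 of all windows had an unadjusted p under 0.05 in reads in edgeR on days 8, 4 and 2. With the replicate number as a block, reads gave 45 on day 8 and 7 on day 2, against 68 and 21. Those were 8.84% and 1.38% of gene-dense windows, against 5.09% and 1.37% of all windows. No other count moved by over 1.5 times under the block. Thinned to 4202118 reads each, the day 8 libraries held 2104216 and 1932225 autosomal positions, against 383292 and 393836 in the day 0 libraries, whose gene-dense windows held a median of 22 positions before thinning.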

Other observations

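Family windows outside the named set also moved on day 8, as chosen after their values were seen. A histone window at chr13:23500001-23600000, with H1f3, H4c8, H3c7 and 12 other histone genes, changed by 1.71 on the log2 scale in positions (edgeR, adjusted p = 0.0106) and 2.68 in reads (adjusted p = 0.0125). Its neighbours at chr13:23600001-23700000 and chr13:23700001-23800000 gave 0.02 and 0.60 in positions (adjusted p = 0.979 and 0.250). The other histone window that passed, at chr3:96200001-96300000 with H4c14 and Fcgr1, changed by 0.88 in positions (adjusted p = 0.0357).

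The interferon alpha window at chr4:88800001-88900000, with Ifna1 and Ifne, antiviral cytokine genes, changed by 1.35 in positions (edgeR, adjusted p = 0.0327) and gave 0.98 in reads (adjusted p = 0.191). The window of the myeloid lectin receptor genes Clec7a, Clec9a and Clec1b at chr6:129400001-129500000 changed by 1.35 in positions (adjusted p = 0.0146) and 2.07 in reads (adjusted p = 0.0292). The protocadherin beta window at chr18:37400001-37500000 changed by 1.19 in positions (adjusted p = 0.0176) and gave 0.91 in reads (adjusted p = 0.0542).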
